A study of Mus musculus with 30 samples.

Results

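The microRNA precursors described here across 5 mouse organs were grouped as synaptic and neuronal microRNAs: Mir129-1, Mir129-2, Mir137, Mir138-1, Mir138-2, Mir153, Mir218-1, Mir218-2, Mir383 and Mir488. They were chosen by symbol, with earlier results of these data known. They are 10 of the 2194 named features in each of the authors' deposited tables. All 10 had a mean above 0 and a test statistic in every organ. Small RNA was sequenced from whole brain, heart, kidney, liver and spleen of 6 untreated male mice aged 4 months, 3 labelled Ftsj1_DF (deficient in Ftsj1) and 3 labelled WT (wild type), which gave 30 libraries. The labels name no allele for Ftsj1_DF. Per the labels, 4 of the mice were brothers and the other 2 were brothers of another litter, and each litter held mice of both genotypes. Ftsj1 encodes a methyltransferase that adds 2'-O-methyl groups to the anticodon loop of tRNA, and its loss is a cause of X-linked intellectual disability in people. The comparison asks whether these microRNAs differ between the genotypes in any organ.

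A microRNA is cut from a hairpin precursor, and the short mature strand guides Argonaute to messenger RNAs that pair with its seed, the bases near its 5′ end. In brain several of these families act on synapses or neurons. miR-138 limits the size of dendritic spines in rat neurons, and miR-129 takes part in homeostatic scaling of synapses in rat neurons. miR-153 acts on SNARE proteins of vesicle release, and miR-137 acts on neuronal maturation. miR-218 is abundant in motor neurons of the mouse, and its copies lie in introns of Slit genes, which encode secreted axon guidance proteins.

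The deposited tables count precursors, so the arms of a hairpin were not separated. Mature sequences are shown because 3 pairs of precursors make the same 5p strand, and reads of that strand alone could not tell the copies apart. RefSeq held 9 of the 10 precursors, and Mir383 is named only. The sequences below come from RefSeq on GRCm38.p6, whereas the authors counted on GRCm39. They read 5′ to 3′ with the seed, bases 2 to 8, in capitals. The first 3 are shared by a pair of copies:
miR-129-5p of Mir129-1 and Mir129-2: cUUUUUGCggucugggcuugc
miR-138-5p of Mir138-1 and Mir138-2: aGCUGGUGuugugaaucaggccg
miR-218-5p of Mir218-1 and Mir218-2: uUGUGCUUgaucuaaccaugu
miR-137-3p of Mir137: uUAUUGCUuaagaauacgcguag
miR-153-3p of Mir153: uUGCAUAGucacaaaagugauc
miR-488-3p of Mir488: uUGAAAGGcuguuucuugguc

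The 17 mature entries of the 9 precursors held 14 distinct sequences with 14 distinct seeds, so no seed was shared beyond the copies. The 3p strands and the hairpin loops do differ between copies. The hairpins of the Mir218 and Mir129 pairs are shown because their ratios differ between organs below. Capitals mark the mature strands that RefSeq lists:
Mir218-1: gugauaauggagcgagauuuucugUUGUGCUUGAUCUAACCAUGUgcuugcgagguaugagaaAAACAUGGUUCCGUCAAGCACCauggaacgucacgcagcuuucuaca
Mir218-2: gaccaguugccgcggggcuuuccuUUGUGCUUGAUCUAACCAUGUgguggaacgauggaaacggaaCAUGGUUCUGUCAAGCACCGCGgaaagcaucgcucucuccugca
Mir129-1: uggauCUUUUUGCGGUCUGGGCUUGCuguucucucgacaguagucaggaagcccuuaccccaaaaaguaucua
Mir129-2: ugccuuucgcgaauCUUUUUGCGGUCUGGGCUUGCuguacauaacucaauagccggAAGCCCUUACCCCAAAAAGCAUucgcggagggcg

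Aligned end to end, the Mir218 hairpins had 83 identical bases, which is 75.5% of their length of 110. The Mir129 hairpins had 64 identical bases, 71.1% of the longer one. The Mir138 hairpins had 54, or 54.5% of the longer one.

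On GRCm38 with the GENCODE M21 annotation, Mir218-1 lies at chr5:48223942-48224051 (+) in an intron of Slit2, and Mir218-2 lies at chr11:35616816-35616925 (+) in an intron of Slit3. Mir488 lies at chr1:158505625-158505733 (+) in an intron of Astn1, which encodes a protein of neuron migration along glia. Mir153 lies at chr12:117250817-117250885 (+) in an intron of Ptprn2, a protein of dense-core vesicles. The other 5 overlap non-coding genes. Mir129-1 at chr6:29022619-29022691 (+) is in an exon of Gm3294, Mir137 at chr3:118433857-118433929 (+) in an exon of Gm26871, and Mir138-2 at chr8:94324311-94324381 (+) in an exon of C78859. Mir138-1 at chr9:122682876-122682974 (+) is in an exon of the transcribed pseudogene Gm47135, and Mir129-2 at chr2:94241364-94241453 (-) is in an intron of Mir670hg. Antisense genes cover Mir153 (Gm5441) and Mir488 (Gm37679). The strand setting of the authors' counting is not given in the sources used here.

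All 10 precursors had their highest level in brain. A level here is the authors' deposited mean normalized count of a precursor, given in CPM, counts per 1000000 of the organ's total. That total was lowest in heart, at 8511372, and highest in kidney, at 21787131. The tables were normalized separately by organ, so levels are set side by side and not tested. In brain the precursors ranged from 148 CPM (Mir138-2) to 5165 CPM (Mir218-2), with a median of 334 CPM. The median was 3.22 CPM in spleen, 2.94 CPM in heart, 1.81 CPM in liver and 1.55 CPM in kidney. Whole organs were measured, so fewer cells of a type and less RNA per cell cannot be told apart. Whether the low counts outside brain all came from cells of that organ was not tested.

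**Figure D1:**
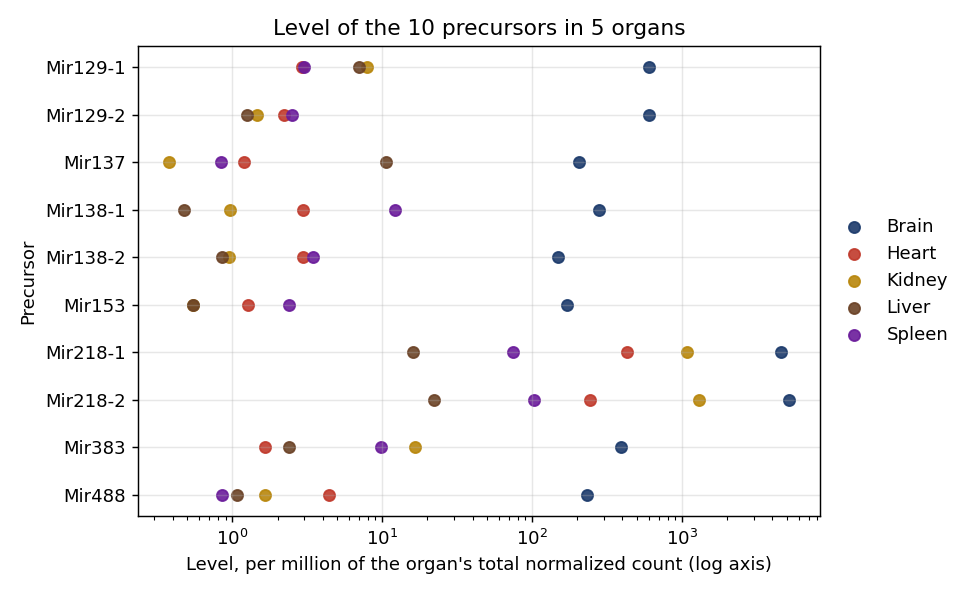
Level of each precursor in the 5 organs, as the authors' deposited mean normalized count in CPM of the organ's total (log axis); each point is 1 organ. Brain is the rightmost point in every row, and the kidney points of Mir218-1 and Mir218-2, at 1082 and 1299 CPM, stand far to the right of the kidney points of the other 8.

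The Mir218 copies were not of low abundance. In brain Mir218-2 held rank 39 of 2194 features by mean and Mir218-1 rank 47, while the other 8 held ranks 116 (Mir129-1) to 179 (Mir138-2). The Mir218 copies made up 78.7% of the summed level of the 10 precursors in brain, and 98.7% in kidney, 97.2% in heart, 83.5% in spleen and 61.4% in liver. Their summed level was 9754 CPM in brain, then 2380 CPM in kidney, 675 CPM in heart, 177 CPM in spleen and 38.4 CPM in liver.

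Outside brain, the kidney held the highest level of both Mir218 copies. Its summed Mir218 level was 24.4% of that in brain, against 6.92% in heart, 1.81% in spleen and 0.394% in liver. Mir218-1 reached 1082 CPM in kidney, rank 66, and Mir218-2 reached 1299 CPM, rank 61. Both copies showed it, at 23.6% (Mir218-1) and 25.1% (Mir218-2) of their brain level. The other 8 precursors summed to 30.5 CPM in kidney, against 2633 CPM in brain. The kidney share of the brain level was 38.9% when the 10 most abundant features of each organ were left out of the totals, and 33.0% on the unscaled means.

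Most, but not all, other neuron-enriched microRNAs were lower in kidney, relative to brain, than the Mir218 copies. Over 31 of them the kidney level was 0% to 138% of the brain level with a median of 0.386%. Of the 31, 2 were above the 24.4% of Mir218, namely Mir874 (138%) and Mir219a-1 (85.2%). Mir219a-1 was low in brain, at 3.68 CPM, and higher in heart (6.28 CPM) and spleen (7.67 CPM), so its percentages rest on a small brain level. Like Mir219a-2 and Mir338 of the list, it is also a marker of oligodendrocytes. Mir9-2 and Mir128-1, the most abundant of the other neuron-enriched microRNAs in brain, were at 0.676% and 0.407% of their brain level in kidney. Over 7 neuron markers with counts (Mir9-2, Mir9-3, Mir124a-1 to Mir124a-3, Mir128-1 and Mir128-2) the kidney level was 0.0936% to 0.676% of the brain level. Mir9-1 was listed at 0 in all 5 organs. The summed level of this marker list was 209948 CPM in brain, then 2131 CPM in heart, 1157 CPM in spleen, 1120 CPM in kidney and 402 CPM in liver. The kidney epithelium list (7 of 7 matched) summed to 242296 CPM in kidney and to 25401 to 146047 CPM in the other organs, so the kidney label and its markers went together. Heart, liver and spleen were each highest for their own list too: cardiac and striated muscle in heart (115720 CPM), the hepatocyte marker Mir122 in liver (261607 CPM) and leukocyte markers in spleen (14714 CPM).

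Outside brain, the 10 precursors did not share one order of organs. Kidney held the next highest level for Mir129-1, Mir218-1, Mir218-2 and Mir383, spleen for Mir129-2, Mir138-1, Mir138-2 and Mir153, liver for Mir137 and heart for Mir488. The brain level over that of the next organ was 3.98-fold for Mir218-2 and 4.24-fold for Mir218-1, 19.2-fold for Mir137, 22.9-fold for Mir138-1 and 23.4-fold for Mir383. It reached 241-fold for Mir129-2. Between these lie Mir138-2 at 42.9-fold, Mir488 at 52.8-fold, Mir153 at 71.9-fold and Mir129-1 at 77.0-fold.

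The spread over libraries bears on that order. The deposited means are sums of whole reads over size factors, so reads per library could be recovered for 34 pairs of precursor and organ outside brain, at 44 to 2833 reads in all per pair. Of the 24 neighbours in the order of organs with reads on both sides, the library values overlapped in 20. The 4 that did not overlap were liver over heart for Mir137, spleen over heart for Mir138-1, spleen over liver for Mir383 and heart over kidney for Mir488. Brain, and Mir218 in heart, kidney and spleen, were too high to be split, so their spread over libraries was not analysed here.

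Mir137 in liver was the first of these. Its level there was 10.6 ± 3.71 CPM (SD over the 6 libraries), and the libraries ran between 6.22 and 15.6 CPM. In heart it was 1.19 ± 0.889 CPM, with a highest library of 2.74. Every liver library lay above every heart library. The liver level was 5.21% of the brain level, against 0.140% to 0.274% for the 7 neuron markers in liver. Of the 31 other neuron-enriched microRNAs, 5 were above Mir137 by this measure in liver, and the median of the 31 was 0.233%. The 5 were Mir219a-1 (80.7%, on 3.68 CPM in brain), Mir874 (30.6%), Mir139 (13.4%), Mir326 (12.8%) and Mir328 (8.57%). Mir137 held rank 205 in liver and ranks 423 to 467 in heart, kidney and spleen.

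Mir138-1 in spleen behaved likewise. It stood at 12.1 ± 2.04 CPM there (SD, 6 libraries) and at 2.96 ± 2.36 CPM in heart. The lowest spleen library, at 9.66 CPM, was above the highest heart library, at 7.32. Its copy Mir138-2 was at 3.45 ± 1.26 CPM in spleen and 2.96 ± 1.61 CPM in heart, and those libraries overlapped. The spleen level was 4.36% of the brain level for Mir138-1, against 0.275% to 0.994% for the 7 neuron markers. In spleen 6 of the 31 other neuron-enriched microRNAs were above Mir138-1 by this measure, and the median of the 31 was 0.558%. The 6 ran from Mir149 at 5.98% to Mir219a-1 at 209%, the latter on 3.68 CPM in brain. Markers of the pancreas (4 of 4 matched) summed to 3224 CPM in spleen and to 14.4 to 439 CPM in the other organs, and their part in the spleen levels was not tested.

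Mir383 was highest after brain in kidney, at 16.6 ± 7.33 CPM, and in spleen, at 9.86 ± 1.96 CPM (SD, 6 libraries each), and these libraries overlapped. The spleen libraries, at 7.27 CPM or more, all lay above the liver libraries, at 4.20 CPM or less. Mir383 was at 4.27% of its brain level in kidney and 2.53% in spleen. Mir488 had its next highest level in heart, at 4.42 ± 1.54 CPM, and at 1.66 ± 0.694 CPM in kidney. The lowest heart library of Mir488 was at 3.22 CPM and the highest kidney library at 2.43.

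Copies of a pair did not keep one ratio across organs. Mir129-1 over Mir129-2 was 1.01 in brain, 1.20 in spleen and 1.33 in heart, but 5.44 in kidney and 5.59 in liver. In kidney and in liver, Mir129-1 was the higher copy in 6 of 6 libraries, with ratios of 1.88 to 24.1 in kidney and 2.75 to 31.3 in liver. In spleen it was higher in 4 of 6 libraries. Mir129-1 was at 7.87 ± 2.59 CPM in kidney and 2.99 ± 1.38 in spleen (SD, 6 libraries each), while Mir129-2 was at 1.45 ± 0.597 CPM in kidney and 2.50 ± 1.02 in spleen. Mir138-1 over Mir138-2 was 0.562 in liver, 1.00 in heart, 1.02 in kidney, 1.88 in brain and 3.52 in spleen, where Mir138-1 was the higher copy in 6 of 6 libraries.

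The Mir218 ratio had the narrowest range of the 3. Mir218-1 over Mir218-2 was 0.889 in brain, 0.833 in kidney, 0.725 in liver and 0.720 in spleen, and 1.77 in heart. Heart was the organ in which Mir218-1 was the higher copy, at 431 CPM beside 244 CPM for Mir218-2. How the authors' counting placed reads of a shared 5p strand is not given in the sources used here, so each ratio describes the deposited counts of 2 symbols.

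**Figure D2:**
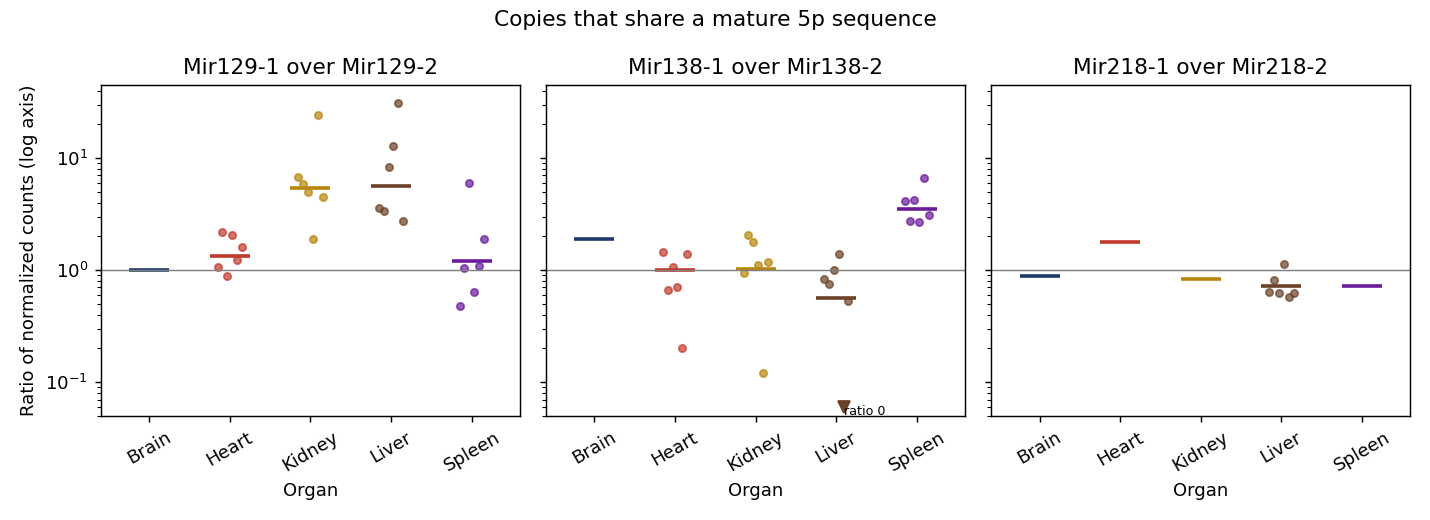
Level of the first copy over the second for 3 pairs of precursors in the 5 organs (log axis); bars are ratios of the deposited means, points the 6 libraries where reads were recovered, and the triangle a liver library with a ratio of 0. The Mir129 points lie above 1 in every kidney and liver library, and the Mir138 points in every spleen library.

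The features with the most similar profile over the 5 organs were found among 639 features, the 10 included, by Euclidean distance between centred log2 levels, and those outside the 10 are named. Mir129-2 had the nearest neighbours: Mir3099 at a distance of 0.50, Mir7b at 0.57 and Mir219a-2 at 0.59. Mir488 was nearest to Mir381 (0.70), Mir495 (1.07) and Mir485 (1.08), and Mir138-2 to Mir1224 (0.74), Mir298 (0.95) and Mir665 (0.99). Mir153 was nearest to Mir1224 (0.86), Mir3099 (0.91) and Mir6540 (1.02). Mir218-2 was nearest to Mir582 (1.08), Mir34c (1.496) and Mir672 (1.497), and Mir218-1 to Mir34b (1.73), Mir582 (1.75) and Mir34c (1.97). Mir129-1 was nearest to Mir598 (1.16), Mir346 (1.24) and Mir758 (1.42), and Mir383 to Mir344 (1.46), Mir183 (1.71) and Mir3547 (1.76). Mir138-1 was nearest to Mir298 (1.40), Mir760 (2.08) and Mir6540 (2.18). Mir137 lay farthest from its nearest features, with Mir154 at 2.52, Mir135b at 2.57 and Mir376b at 2.75.

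No precursor passed the genotype test in any organ. The authors' deposited tables give a DESeq2 fold change of Ftsj1_DF and WT libraries per organ without naming the numerator, so fold changes are given with their sign only. At an adjusted p of 0.05, 0 of 10 precursors passed in each organ. The share of all tested features that passed was 0% in brain, kidney and spleen, 0.361% in heart and 0.229% in liver. In heart only 6 of the 10, and 355 of 1107 tested features, carried an adjusted p, so the others there could not pass. At an unadjusted p of 0.05, DESeq2 gave 0 of 10 in brain, heart, kidney and spleen and 1 of 10, Mir137, in liver. The share of all tested features at that unadjusted level was 2.23% for brain, 5.33% for heart, 4.5% for kidney, 3.9% for liver and 3.48% for spleen. The p-values measure the spread between these libraries, 3 per genotype, and brothers are among the mice.

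The signs were mixed. Of the 10 fold changes in the authors' deposited tables, 8 were positive in liver, 6 each in brain and kidney, 5 in spleen and 3 in heart. Their median log2 fold change was 0.41 for liver, 0.19 for kidney, 0.02 for brain, -0.06 for spleen and -0.34 for heart in the authors' deposited tables. Over all tested features the median was 0.06 for liver, 0.04 for kidney, -0.01 for brain, 0.00 for spleen and 0.16 for heart. Over tested features with a mean of at least 10 it was 0.004 for liver, -0.03 for kidney, -0.003 for brain, -0.0003 for spleen and -0.01 for heart. The share of all tested features with a positive fold change was 52.2% for liver, 51.9% for kidney, 49.2% for brain, 50.1% for spleen and 57.9% for heart. The median standard error of the 10 was 0.92 for liver, 0.83 for kidney, 0.30 for brain, 0.65 for spleen and 0.80 for heart, in the log2 units of the authors' deposited tables.

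Of the other neuron-enriched microRNAs, 33 of 38 were matched by symbol, and 30 or 31 of them had a statistic. DESeq2 gave 0 past an adjusted p of 0.05 in all 5 organs, and 3 for kidney, 2 for spleen, 1 each for brain and liver and 0 for heart at an unadjusted p of 0.05. Their signs ran to 25 positive and 5 negative in spleen, 19 positive and 11 negative in both kidney and liver, 12 positive and 19 negative in heart, and 11 positive and 20 negative in brain. In the authors' deposited tables their median log2 fold change was 0.36 for liver, 0.18 for spleen, 0.13 for kidney, -0.05 for brain and -0.11 for heart. The share of all tested features with a positive fold change was 50.1% for spleen and is given above for the other organs. Copies such as Mir9-2 and Mir9-3 were counted separately, so the sign counts are not of independent features.

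**Figure D3:**
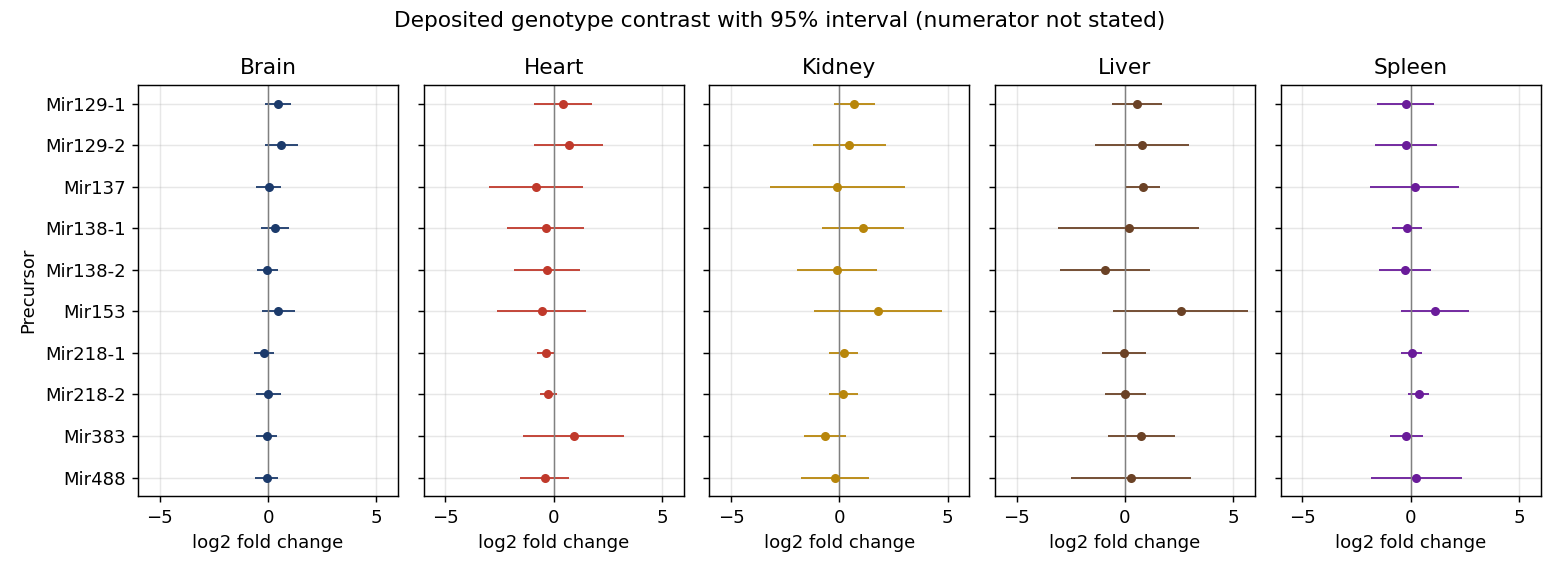
Log2 fold change of each precursor between the genotypes in the authors' deposited tables, by organ, with a 95% interval from the deposited standard error; the vertical line marks 0 and the numerator is not stated. The intervals are narrow in brain and for the Mir218 copies in heart, kidney and spleen, and wide for precursors with few reads, and 1 interval, that of Mir137 in liver, lies on one side of 0.

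In brain, where all 10 had their highest level, every interval held 0. The largest brain value was that of Mir129-2, with a log2 fold change of 0.61 and a 95% interval of -0.15 to 1.37 in the authors' deposited table (DESeq2 p = 0.114, adjusted p = 0.989). Its copy Mir129-1 had 0.46 with an interval of -0.16 to 1.08 in the authors' deposited table, and Mir153 had 0.48 with an interval of -0.30 to 1.26. Mir137 had 0.03 with an interval of -0.56 to 0.62 in the authors' deposited table. For Mir138-2 the interval was -0.51 to 0.46, for Mir383 -0.54 to 0.43 and for Mir488 -0.60 to 0.46 in the authors' deposited table. The intervals of Mir138-1, Mir218-1 and Mir218-2 were -0.31 to 0.96, -0.64 to 0.26 and -0.58 to 0.61 in that order in the authors' deposited table.

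In heart, kidney and spleen the Mir218 copies had the smallest standard errors of the 10. In heart the log2 fold change was -0.37 for Mir218-1, with a standard error of 0.20 (DESeq2 p = 0.0598, adjusted p = 0.455), and -0.25 for Mir218-2, with a standard error of 0.21, in the authors' deposited table. In kidney, where their level is high, the authors' deposited table gave 0.20 for Mir218-1 with an interval of -0.45 to 0.85, and 0.19 for Mir218-2 with an interval of -0.49 to 0.86. The spleen values in the authors' deposited table were 0.05 for Mir218-1 and 0.37 for Mir218-2, whose DESeq2 p was 0.126 (adjusted p = 0.988).

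The liver reads of the Mir218 copies could be split by library. The sides of a contrast are called positive, for the 3 libraries that raise the fold change, and negative, for the other 3, since the libraries carry no genotype in the tables. Mir218-1 had 160, 249 and 135 reads in the positive libraries, against 756, 232 and 623 in the negative libraries in liver. Mir218-2 had 249, 302 and 214 reads in the positive libraries, against 663, 402 and 1003 in the negative libraries. Divided by the size factors, which ran between 0.4999 and 0.729 in the positive libraries and between 1.45 and 2.15 in the negative libraries, the sides overlapped for both copies. The authors' deposited table gave a log2 fold change of -0.04 for Mir218-1 and 0.01 for Mir218-2 in liver. Without the second negative library, which had 0 reads of the neuron marker Mir124a-3, the log2 ratio of the side means was -0.37 for Mir218-1 and -0.24 for Mir218-2.

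Mir137 in liver had the smallest p of the 50 contrasts. It had 191, 130 and 148 reads in the positive libraries and 398, 205 and 171 in the negative ones. The normalized counts were 262, 216 and 296 in the positive libraries, against 185, 134 and 118 in the negative libraries. The sides did not overlap after normalization, and the negative libraries, with the larger size factors, held the highest raw counts. The mean was 258 ± 40.01 for the positive and 145 ± 34.99 for the negative libraries (SD, n = 3 each). The authors' deposited table gave a log2 fold change of 0.83 with a standard error of 0.41 (DESeq2 p = 0.0424, adjusted p = 0.991). Without each library in turn, the log2 ratio of the side means was between 0.70 and 1.04.

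Sides that did not overlap were seen for 2 of 8 split precursors in kidney and 2 of 10 in liver, and for 0 of 8 in heart and in spleen. The share of all features with such sides was not worked out, so these separations are described only. Mir129-1 in kidney also had sides that did not overlap. It had 298, 237 and 155 reads in the positive libraries, against 81, 169 and 122 in the negative libraries, or normalized counts of 224, 186 and 225 (positive), against 72.6, 166 and 155 (negative). The authors' deposited table gave a log2 fold change of 0.69 with a standard error of 0.48 (DESeq2 p = 0.151, adjusted p = 0.9752). The highest negative library, at 166, lay close to the lowest positive library, at 186. In liver the same precursor had 90, 47 and 134 reads in the positive libraries, against 180, 188 and 165 in the negative libraries, and the normalized sides overlapped. Its log2 fold change in liver was 0.55 with a standard error of 0.59 in the authors' deposited table.

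Mir383 in kidney had the opposite sign. It had 346, 565 and 92 reads in the positive libraries, against 458, 608 and 260 in the negative libraries, and the normalized sides overlapped, with means of 279 ± 156 and 446 ± 136 (positive and negative side, SD, n = 3 each). The authors' deposited table gave a log2 fold change of -0.67 with a standard error of 0.50 (DESeq2 p = 0.178, adjusted p = 0.9752). In spleen Mir383 had 151, 88 and 49 reads in the positive libraries, against 131, 130 and 118 in the negative libraries. There the sides overlapped, and the log2 fold change was -0.19 with a standard error of 0.39 in the authors' deposited table.

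Mir138-1 in spleen, its highest organ after brain, had 197, 77 and 84 reads in the positive libraries, against 200, 125 and 148 in the negative libraries. The normalized sides overlapped, at 122 ± 16.3 (positive) and 138 ± 27.3 (negative) (SD, n = 3 each). The authors' deposited table gave a log2 fold change of -0.18 with a standard error of 0.36. In kidney Mir138-1 had few reads, 35, 27 and 27 in the positive libraries, against 22, 4 and 13 in the negative libraries. Those kidney sides did not overlap after normalization, and the log2 fold change was 1.10 with a standard error of 0.97 in the authors' deposited table.

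Mir153 gave the largest fold changes of the 10 in liver, kidney and spleen, on few reads. In liver it had 6, 10 and 14 reads in the positive libraries, against 3, 0 and 11 in the negative libraries, and the normalized sides did not overlap. The authors' deposited table gave a log2 fold change of 2.57 with a standard error of 1.58 (DESeq2 p = 0.105, adjusted p = 0.991). In kidney it had 6, 34 and 17 reads in the positive libraries, against 15, 0 and 2 in the negative libraries, with overlap. In spleen it had 23, 40 and 23 reads in the positive libraries, against 13, 34 and 7 in the negative libraries, with overlap. Its fold changes were 1.79 in kidney and 1.14 in spleen in the authors' deposited tables, with standard errors of 1.505 in kidney and 0.80 in spleen.

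The remaining pairs of precursor and organ had lower or more scattered counts. Mir488 had 56 reads in all in spleen and 264 in heart, Mir137 had 50 in kidney, 54 in spleen and 58 in heart, and Mir138-2 had 121 in liver to 237 in spleen. Mir129-2 had 192 reads in kidney, 184 in spleen, 135 in liver and 124 in heart. In heart, 8 precursors had 58 to 264 reads in all, and their sides overlapped in 8 of 8. Of the 34 splits, 16 changed the sign of the side ratio when 1 library was left out.

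One library stood apart in each of heart, kidney and liver by a neuron marker. There, 1 of the 6 libraries had 0 reads of Mir124a-3, where the other 5 had 92 to 154 reads in heart, 87 to 255 in kidney and 107 to 457 in liver. Mir124a-3 was named after its values were seen. In each of the 3 organs that library was on the negative side. No spleen library was at 0, and the 6 had 127 to 223 reads. Per the labels, heart, kidney and liver each had 1 WT library of a second sequencing batch, which replaced libraries of low depth or missing ones, and brain and spleen had none. The tables name no library, so whether these are the same libraries cannot be told.

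The precursors did not all follow Mir124a-3 in those libraries. In the kidney library Mir137 and Mir153 had 0 reads, Mir138-1 had 4 and Mir129-2 had 7, while Mir383 had 608, Mir129-1 had 169 and Mir138-2 had 33. In the liver library Mir138-1, Mir153 and Mir488 had 0 reads and Mir129-2 had 6, while Mir137 had 205, Mir129-1 had 188, Mir383 had 89 and Mir138-2 had 44. In the heart library Mir383 had 0 reads, while Mir488 had 76, Mir138-2 had 71, Mir138-1 had 50 and Mir129-1 had 31.

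Set against the mean of the other 5 libraries, the normalized count there was 189% for Mir383 and 96.1% for Mir129-1 in kidney, and 18.8% for Mir129-2 and 16.0% for Mir138-1. In liver it was 212% for Mir138-2, 136% for Mir383, 91.8% for Mir129-1 and 62.0% for Mir137, and 14.2% for Mir129-2. Among the other neuron-enriched microRNAs that could be split, with Mir124a-3 left out because it chose the library, 3 of 15 in heart, 8 of 16 in kidney and 8 of 17 in liver had 0 reads in that library. These counts still hold Mir124a-1 and Mir124a-2, so they are not independent of the choice of library. Both had 0 reads there in kidney and in liver, and 0 and 2 reads in heart. The share of all features with 0 reads in that library was not worked out. The highest value of the other neuron-enriched microRNAs was 169% of the mean of the others in heart, 582% in kidney (Mir346) and 220% in liver (Mir346). Muscle markers in that library were at 0% and 42.8% of the mean of the others in kidney (Mir208a and Mir133a-1), and at 141% to 317% in liver.

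**Figure D4:**
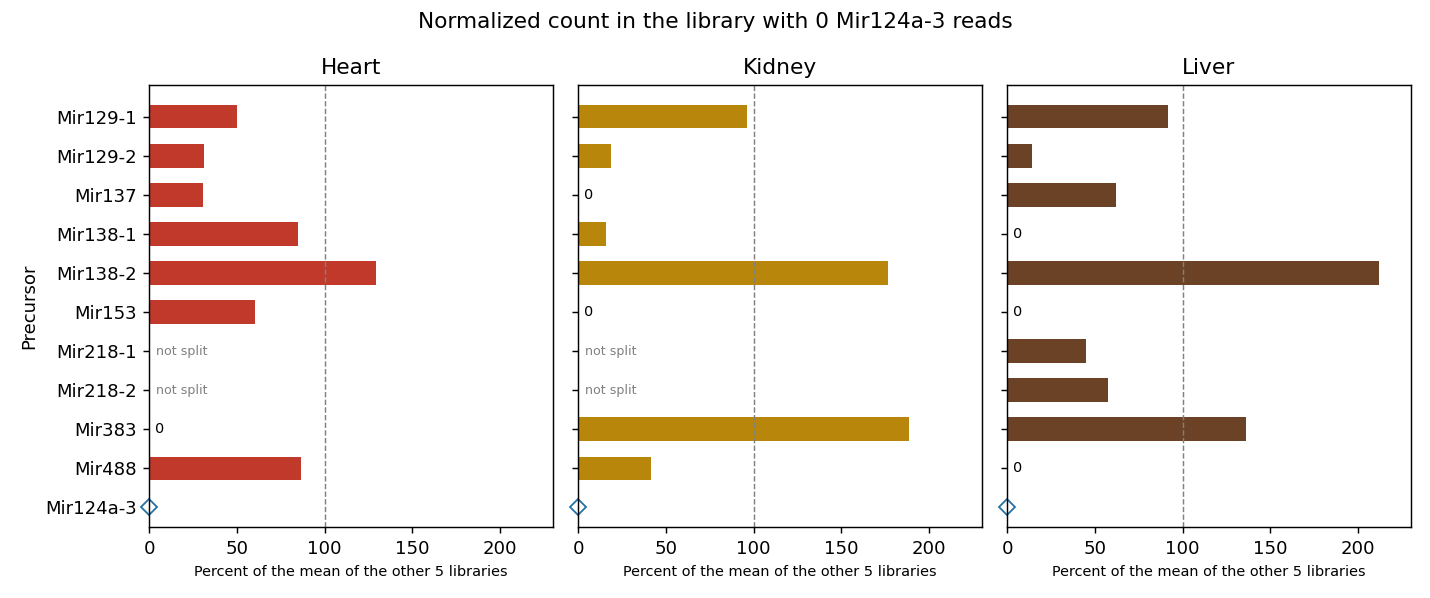
Normalized count of each precursor in the library with 0 Mir124a-3 reads, as a percent of the mean of the other 5 libraries of the organ; the dashed line marks 100% and the diamond Mir124a-3. In kidney and liver the bars of Mir138-2 and Mir383 pass 100%, while Mir129-2 stays at 18.8% in kidney and 14.2% in liver.

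Leaving out that library moved several side ratios. The log2 ratio of the positive to the negative mean was 0.00 for Mir129-2 in kidney without it and 0.46 with it, and 1.22 for Mir153 in kidney without it and 1.80 with it. For Mir138-1 in kidney it was 0.67 without the library and 1.11 with it. For Mir383 in liver it was 1.40 without it and 0.75 with it. For Mir137 in liver it was 0.77 without it and 0.83 with it, and for Mir129-1 in kidney 0.89 without it and 0.69 with it. The sign turned in 4 cases. For Mir138-1 in liver it was -0.41 without it and 0.18 with it, for Mir488 in liver -0.31 without it and 0.27 with it, for Mir218-2 in liver -0.24 without it and 0.01 with it, and for Mir138-2 in kidney 0.32 without it and -0.10 with it. For Mir218-1 in liver it was -0.37 without it and -0.04 with it. Whether the library accounts for any of these values was not tested.

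**Figure D5:**
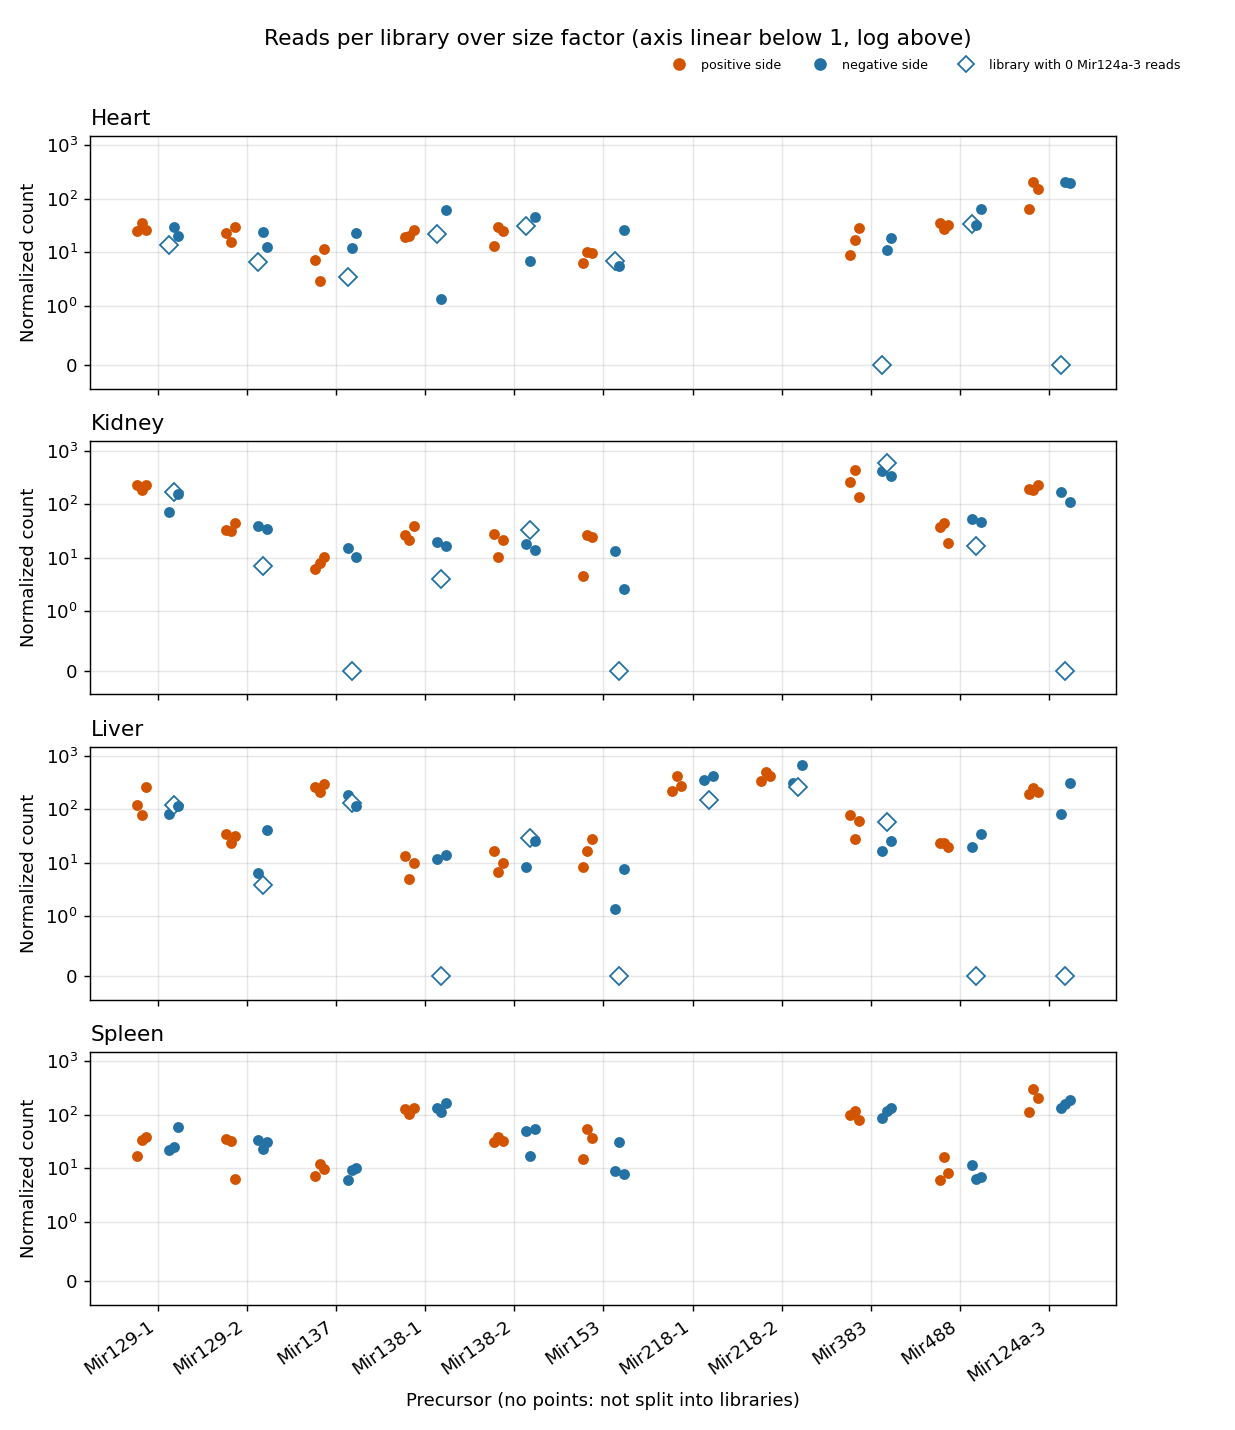
Normalized count of each precursor and of Mir124a-3 in every library, by organ (axis linear below 1 and log above); the positive side of the contrast is left of the negative side, and the open diamond is the library with 0 Mir124a-3 reads. Sides overlap for most precursors, and in kidney the diamond is the highest point for Mir383 and Mir138-2 but lies at 0 for Mir137 and Mir153.

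No precursor passed the test of a different genotype contrast between organs. Each of the 10 pairs of organs was compared by the difference of the 2 log2 fold changes over their combined standard error, with adjustment over all features tested in the pair. Across the 100 differences, 0 passed at an adjusted p of 0.05 from this z test on DESeq2 values, and the share of all features that passed was 0% in 9 pairs and 0.134% for kidney minus liver. At an unadjusted p of 0.05, 1 of 100 passed. The share of all features at that level was, for brain, 2.27% minus heart, 3.26% minus kidney, 3% minus liver and 2.29% minus spleen. For heart it was 2.05% minus kidney, 2.44% minus liver and 2.92% minus spleen, for kidney 1.74% minus liver and 4.09% minus spleen, and for liver minus spleen 3.16%. That 1 was Mir218-2 in heart minus spleen, for which the authors' deposited tables gave -0.25 in heart and 0.37 in spleen, a difference of -0.62 with a standard error of 0.32 (z test on DESeq2 values, p = 0.0496, adjusted p = 0.9995). These comparisons assume the same numerator in each table and treat organs of the same mice as independent. They also miss many differences. On simulated data for heart minus spleen, the test found 23 of 200 changed features at a log2 difference of 1. At a log2 difference of 3 it found 69 of 200, so the lack of a call does not show that the contrasts are alike.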

How the data were processed

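Small RNA libraries came from the NEXTflex kit, per the labels' protocols. The authors counted reads with featureCounts (Subread 2.0.3) on GRCm39 and ran DESeq2, per the submitters' processing notes. Which aligner, annotation and model formula were used is not stated in the sources used here. Each organ has 1 table from the authors. Its mean is a signal, counts over size factors averaged over the 6 libraries, per the file headers. Its fold change and standard error are log2 values, per the file headers. A score, the Wald statistic, and its p-value with the adjusted one were deposited beside them. The fold changes do not name their numerator. Of 2195 rows, 1 without a name (at most 1.82e-05% of a total) was left out. No column of values per sample was unused.

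Without counts per library, the planned fallback was used, the DESeq2 test that the authors deposited. Called means an adjusted p below 0.05. In heart 355 of 1107 tested features carry an adjusted p, among them 6 of the 10 precursors. Differences between organs were z tests of 2 deposited fold changes with Benjamini-Hochberg adjustment. Means under 1 gave 6 size factors per organ, and means up to 430 were split into whole reads at a relative tolerance of 5e-15; a split was kept where refitting it gave the deposited log2 fold change within 5e-05. On simulated data 36 of 36 splits were recovered, and for heart minus spleen, over 959 features, 23 of 200 changed features at a log2 difference of 1 and 69 of 200 at 3. Every simulated library had at least 1 read, and the simulated means lay below the highest means that were split. The 36 therefore do not vouch for splits with 0 reads or with the highest means. The mean alone left 615 splits for Mir383 in kidney and 1856 for Mir218-2 in liver. The splits kept for these also matched the deposited log2 fold change on refitting. Profiles used log2(level + 0.1) of features with a mean of at least 10 in some organ. Named were all 10 precursors, the 3 nearest profiles of each and the 2 most abundant other neuron-enriched microRNAs in brain; further microRNAs named were chosen after their values were seen. The precursors and lists were chosen with earlier results of these data known. Analysis used Python 3.11.15, numpy 2.4.6, pandas 2.3.3, scipy 1.17.1 and Biopython 1.88.

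Marker lists whose summed levels were not printed in the results were oligodendrocyte, endothelium and red cell. Their summed levels were 3819 CPM in brain and 8.54 to 20.01 CPM elsewhere for oligodendrocyte, 53083 CPM in heart and 6559 to 27911 CPM elsewhere for endothelium, and 2281 CPM in heart and 71.3 to 1394 CPM elsewhere for red cell. The read counts printed and the 3 libraries per group set the precision.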

Additional observations from a re-analysis of the deposited data

How the results depend on the processing

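No precursor passed an adjusted p of 0.05 in any organ when DESeq2 p-values were adjusted over all features or means of at least 10. The same held over microRNA symbols only, and with p-values taken from the statistic where none was deposited. Every precursor had a deposited p, so the last choice left its own p unchanged. At an unadjusted p of 0.05 the liver count was 1 in place of 0, and the other organs stayed at 0. The difference between organs stayed at 0 with a mean of at least 10 in both organs. It also stayed at 0 with enlarged standard errors, which can only raise each p and so could not add a call. The summed level in brain over that in kidney was 5.14, against 3.22 without the 10 most abundant features, 3.80 on unscaled means and 5.12 on microRNA symbols only. The kidney Mir218 level was 24.4% of the brain level, against 38.9%, 33.0% and 24.5% under the same 3 choices; the first 2 of these were added for Mir218 after seeing the data, as was leaving out the library without Mir124a-3 reads. Of 100 levels under another total, 45 moved, by the totals' construction. Without 1 library, 204 of 204 levels stayed within 1 SD of the libraries. Leaving out 1 library cannot move a mean beyond that limit, so this count does not measure stability. Of the 204, 1 moved by over 1.5 times. It was the level of Mir153 in liver, at 0.357 CPM without the third positive library, against 0.544 CPM with it. No paired analysis was possible because the deposited columns carry no library names. Leaving out libraries for Mir218 in kidney was not run, since its reads were not split. Depth limits the precursors with few reads, and 3 libraries per genotype limit all of them.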
